A study of Mus musculus with 6 samples.

Results

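The 36 genes described here are the 4 transcription factors of the TFEB family and 32 genes of the lysosome, and they were followed across all 6 arrays of a study of mouse macrophages. They were chosen by function (4 factors, 10 lysosomal peptidases and their partners, 12 other hydrolases and cofactors, 8 membrane or cholesterol-handling proteins and 2 subunits of the proton pump), and each was read from 1 probe set. A probe set is a group of short array probes for 1 transcript, and where a gene had several, the one with the highest mean over the 6 arrays was used. All 36 genes were found among the 18193 genes that the arrays measure. The study set macrophages treated with LPS (lipopolysaccharide, the endotoxin of Gram-negative bacteria) against macrophages in medium, and Trib1 knockout against wild-type macrophages after LPS. Trib1 encodes a pseudokinase that acts as an adaptor for protein degradation. One wild-type array held cells kept in medium and one wild-type array held cells given LPS, and these are called the LPS pair. The other 4 arrays came from the Trib1 line, all after LPS, with 2 wild-type arrays and 2 knockout arrays, numbered 1 and 2 within each genotype by the labels. No Trib1 knockout array in medium was analysed here. The labels do not give the source of the macrophages, the dose or duration of LPS, the strain, age or sex of the mice, or the form of the Trib1 deletion. They also do not say whether numbers 1 and 2 stand for separate animals, so the spread between arrays may be technical in part.

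Lysosomes are acidic organelles in which hydrolases digest material taken up from outside or delivered by autophagy, and macrophages are rich in them. A proton pump, the V-ATPase, acidifies the lumen, and membrane proteins carry the products of digestion and cholesterol back to the cytosol. TFEB and its relatives TFE3, MITF and TFEC are basic helix-loop-helix factors that bind a short E-box-like motif found in many lysosomal promoters, and mTORC1 at the lysosomal surface holds TFEB in the cytosol while nutrients are plentiful. Their activity is controlled largely by phosphorylation and movement into the nucleus, which RNA levels do not report.

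The values are scaled intensities. The deposited intensities of each array were brought to the same trimmed mean of 234, because the LPS pair had been deposited at a trimmed mean of 500 and the Trib1-line arrays at 95.5 to 107. A floor was set at 29.9, the 40th percentile of all values, and 57.9% to 63.0% of probe sets lay above it on each array. Every one of the 36 genes lay above the floor on every array. The RNA of the LPS pair and the Trib1 line also differed in sex-linked transcripts. Xist read 1616 and 980.5 on the LPS pair and at most 5.56 on the Trib1-line arrays. The Y-linked Eif2s3y read at most 4.74 on the LPS pair and 219 to 534 on the Trib1-line arrays. Sex, mouse line, scaling at deposit and any batch therefore cannot be told apart between the LPS pair and the Trib1 line. The labels name no experiment. Where 2 experiments are spoken of below, these 2 sets of arrays are meant. The summed level of 10 macrophage markers was 79988 to 104978, and each of the 10 was above the floor on every array. The Trib1 probe set with the highest signal read 383 in medium, 189 on the LPS array, 17.9 and 17.5 on the Trib1-line wild-type arrays, and 88.1 and 20.9 in the knockout. The wild-type values were under the floor and below both knockout values. The second Trib1 probe set read 20.2 and 63.0 in the wild type and 32.3 and 38.7 in the knockout, with overlap. Where the probes lie relative to the deletion is not given in the sources used here. Trib1 RNA therefore does not check the genotype labels, which are used below as they stand.

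Intensity cannot be compared between genes on such arrays, so each gene was compared with itself across arrays. Of the 36 genes, 14 varied by less than 1.5-fold between their lowest and highest array, and 11 varied by more than 2-fold. The chosen probe set of Lamp2, a heavily glycosylated protein of the lysosomal membrane, varied least, with 8412 in medium, 8195 on the LPS array, 8191 and 8608 on the Trib1-line wild-type arrays, and 8365 and 8124 in the knockout. Those 6 values span 1.06-fold, but the other Lamp2 probe sets ran more widely, from 4780.9 to 7274, from 4252 to 6912 and from 5503 to 7917. Tfeb varied most, with a highest array 11.6-fold above its lowest. For 8 of the genes the signal was at least 50% of the array's maximum on every array, and for 10 it was at or above the 99th percentile of all probe sets on every array.

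**Figure D1:**
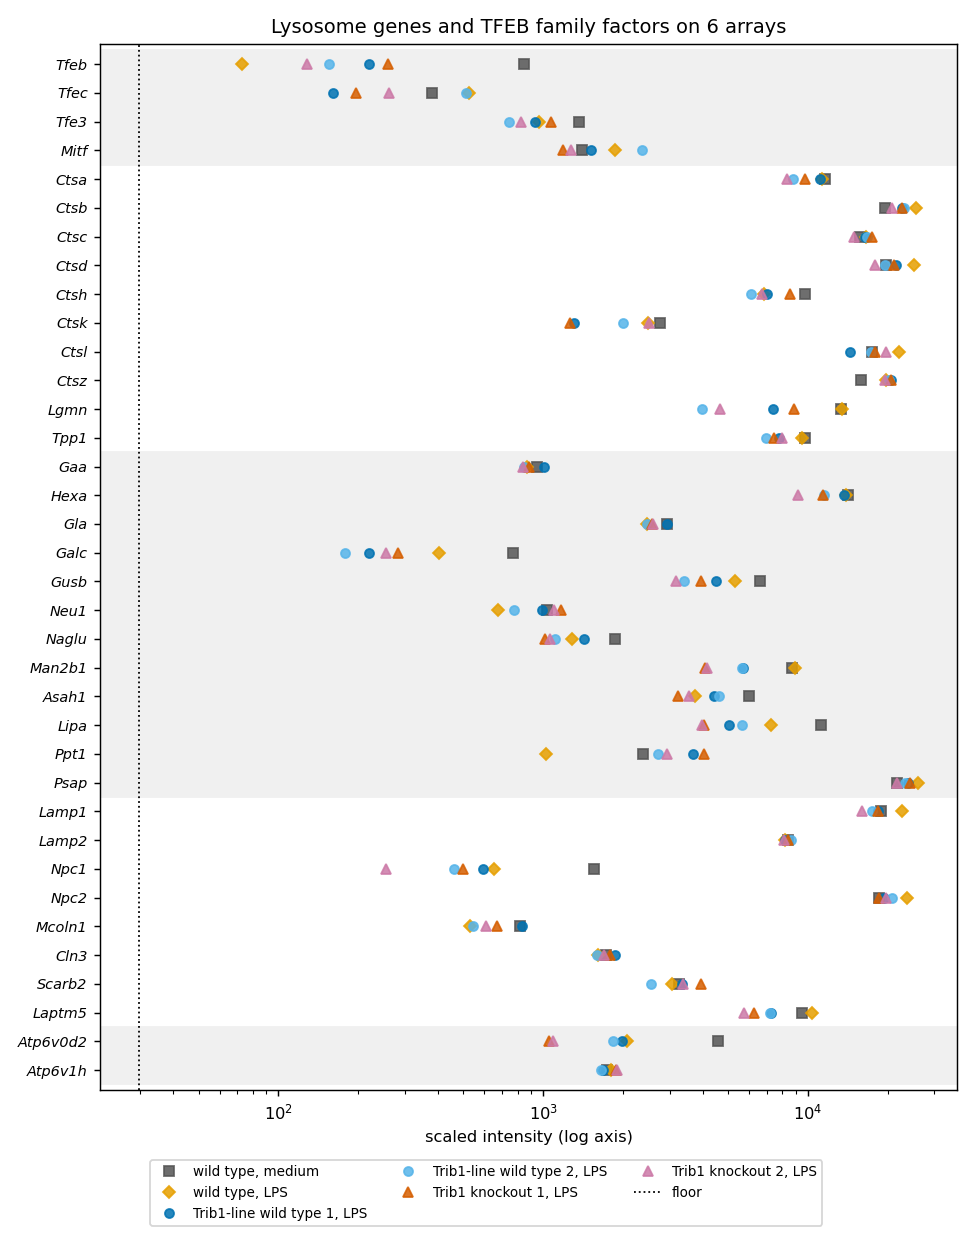
Scaled intensity (log axis) of the 36 genes on the 6 arrays, with 1 row per gene, shaded by role and 1 symbol per array; the dotted line is the floor of 29.9. Every point lies to the right of the floor, the 6 points of Lamp2 span 1.06-fold, and the medium square of Tfeb stands at 847 with all 5 LPS arrays between 73.2 and 260.4.

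LPS went with lower RNA of a few of these genes and with smaller differences in most. Within the LPS pair, which has 1 array on each side and so no test, 1 of the 36 genes was at least 4-fold lower after LPS (Tfeb), where 0.672% of all genes were, and 0 were at least 4-fold higher, where 1.21% were. At 2-fold, 4 genes were lower (Tfeb, Ppt1, Npc1 and Atp6v0d2) against 6.72% of all genes, and 0 were higher against 5.44%. When the 2 wild-type Trib1-line arrays were set against the same medium array as well, Tfeb, Npc1 and Atp6v0d2 were at least 2-fold below medium on all 3 wild-type LPS arrays. That is 3 of 36 genes, where 2.24% of all genes were, and 0 were at least 2-fold above medium on all 3, where 2.19% were. Lower on all 3 by any amount were 16 of the 36, against 31.5% of all genes, and higher on all 3 were 6, against 22%. The 6 were Mitf, Ctsb, Ctsc, Ctsz, Psap and Npc2.

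The limma test of the 3 wild-type LPS arrays against the medium array, adjusted by Benjamini-Hochberg over all 28430 probe sets that exceeded the floor in 2 or more of these 4 arrays, called 0 of the 36 genes in either direction at an adjusted p under 0.05. It called 0.206% of all genes higher and 0.00736% lower. At an unadjusted p under 0.05, 5 of the 36 were lower (Tfeb, Galc, Lipa, Npc1 and Atp6v0d2), against 5.32% of all genes, and 0 were higher, against 4.1%. The result depends on which LPS arrays enter. Leaving out the LPS array, the same limma test called 6 of the 36 lower (Tfeb, Lgmn, Galc, Lipa, Npc1 and Atp6v0d2), and without wild-type Trib1-line array 1 it called Tfeb alone. The first of these leaves a contrast between the 2 experiments, and over all probe sets it called 585 higher and 561 lower. The median log2 difference over the 36 genes was -0.17, with 27 genes below 0, while over all genes it was -0.03, with 52% below 0. It was -0.28 after quantile normalization, and -0.45 with the median over each gene's probe sets, where that of all genes was -0.01. Within 0.5 of 0 on the log2 scale lay 25 of the 36, against 62.9% of all genes.

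Among the factors, Tfeb was lower after LPS on every array. It read 847 in medium and 73.2 on the LPS array of the same experiment, an 11.6-fold difference. The wild-type Trib1-line arrays read 221 and 156, which is 3.84-fold and 5.44-fold below medium, and the knockout arrays read 260.4 and 128. The medium value stands apart from all 5 LPS values. The LPS values themselves spread widely, and the lowest came from the LPS pair. In the limma test the log2 difference was -2.64 ± 0.63 (SE, 3 arrays against 1), with an adjusted p of 0.243. The log2 difference was -2.19 without the LPS array, -2.99 without wild-type Trib1-line array 1 and -2.74 without array 2 of that group. The first of these sets Trib1-line arrays alone against a medium array of the LPS pair.

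The other factors showed no difference of that kind. Tfe3, which shares targets with Tfeb, read 1365 in medium, 960.2 on the LPS array and 929 and 744 on the Trib1-line wild-type arrays, all below medium, with a limma log2 difference of -0.65 ± 0.29 (SE) and an adjusted p of 0.642. Mitf, the factor of pigment cells, mast cells and osteoclasts, read 1406 in medium and 1864, 1515 and 2366 on the same LPS arrays, all above medium, at 0.42 ± 0.33 and an adjusted p of 0.819. Its second probe set read 379 in medium and 305, 265 and 451 on those arrays, on both sides of medium, at -0.19. Tfec, whose expression is largely restricted to myeloid cells, read 379 in medium and 524, 161 and 513 on the LPS arrays, on both sides of medium, and its difference of -0.11 ± 0.68 had an adjusted p of 0.977.

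Of the membrane proteins, Npc1, which moves cholesterol out of lysosomes, was the one that differed by over 2-fold throughout. It read 1562 in medium, 651 on the LPS array, 594 and 462 on the Trib1-line wild-type arrays and 499 and 256 in the knockout. All 5 LPS values lie more than 2-fold below the medium value, knockout array 2 furthest. The limma difference was -1.47 ± 0.32 (SE), with an adjusted p of 0.189. With the wild-type Trib1-line arrays alone against medium it was -1.58. Its partner Npc2, a soluble protein that hands cholesterol to Npc1, read 18580.1 in medium and 23679.7, 19428 and 20694 on the wild-type LPS arrays, at a log2 difference of 0.19. A dimmer Npc2 probe set read 2831 in medium and 2538, 2086 and 1984 on those arrays, at -0.37, so the array gives no direction for Npc2. The other 6 genes of this role differed less: Lamp1 at 0.04, Lamp2 at -0.01, the calcium channel gene Mcoln1 at -0.40, Cln3 at -0.03, the glucocerebrosidase receptor gene Scarb2 at -0.14 and Laptm5 at -0.21 on the log2 scale.

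Atp6v0d2, the subunit of the proton pump's membrane sector that is abundant in osteoclasts and macrophages, read 4580.5 in medium. It read 2066 on the LPS array, 1981 and 1840.4 on the Trib1-line wild-type arrays, and 1048 and 1091 in the knockout. The 3 wild-type LPS values lie close together, 2.22-fold to 2.49-fold below medium, and the knockout values are lower again. The limma difference was -1.22 ± 0.26 (SE), with an adjusted p of 0.189. With the wild-type Trib1-line arrays alone against medium it was -1.26. Its second probe set ran in the same order of groups, from 4399.8 in medium to 1726, 1520.0 and 1376 on the wild-type LPS arrays and 809 and 752 in the knockout. Atp6v1h, a subunit of the pump's cytosolic sector, differed little, with 1743 in medium and 1808, 1684 and 1659.7 on the wild-type LPS arrays.

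**Figure D2:**
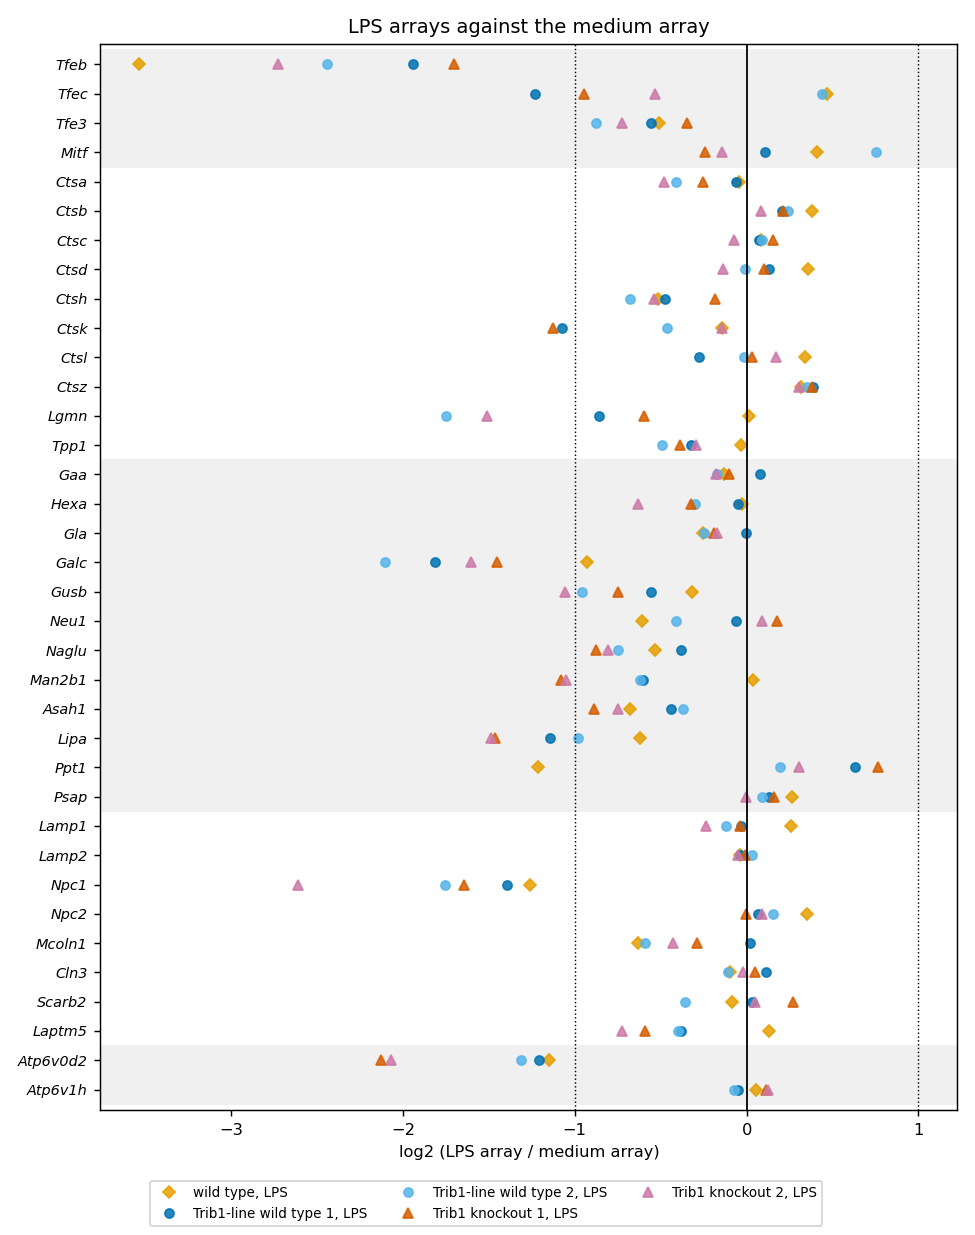
Log2 ratio of each of the 5 LPS arrays to the single medium array for the 36 genes, with 1 row per gene shaded by role and dotted lines at 2-fold. Tfeb, Npc1 and Atp6v0d2 are the rows in which all 5 points lie left of the 2-fold line, and no point passes 2-fold on the right.

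Of the 12 other hydrolases and cofactors, 11 had a log2 difference below 0, with a median of -0.38, but the amounts were small for most. Galc, which removes galactose from galactosylceramide, read 772 in medium, 405 on the LPS array and 219 and 179 on the Trib1-line wild-type arrays. These are 1.91-fold, 3.52-fold and 4.31-fold below medium, so the Trib1-line arrays lay further from medium than the LPS array did. The limma difference was -1.62 ± 0.50 (SE), with an adjusted p of 0.424. With the wild-type Trib1-line arrays alone against medium it was -1.96. Lipa, the acid lipase that splits cholesteryl esters and triglycerides, read 11152 in medium, 7255 on the LPS array and 5039.6 and 5646 on the Trib1-line wild-type arrays, 1.54-fold to 2.21-fold below medium. Its limma difference was -0.92 ± 0.32, with an adjusted p of 0.502, and -1.06 with the wild-type Trib1-line arrays alone against medium. Its other probe sets gave -1.10 and -1.07, so all 3 lay below medium by a like amount.

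Ppt1, which removes palmitate from proteins, read 2377 in medium and 1025 on the LPS array, 2.32-fold lower. The wild-type Trib1-line arrays read 3687 and 2719, both above that medium array, which belongs to the LPS pair. A second Ppt1 probe set read 2365, 1157, 3414 and 2329 on the same arrays, with Trib1-line wild-type array 2 just below medium. The remaining hydrolases lay closer to medium. Gusb, which removes glucuronic acid, Naglu of heparan sulfate breakdown and Asah1, the acid ceramidase, were below medium on all 3 wild-type LPS arrays at -0.61, -0.55 and -0.50 (log2). Gaa, which breaks down glycogen, Hexa of ganglioside breakdown and the galactosidase gene Gla lay at -0.07, -0.12 and -0.17. Psap, the precursor of the saposins that present lipids to these enzymes, lay at 0.16.

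On their chosen probe sets, 5 of the 10 peptidase genes lay below 0 and 5 above, with a median log2 difference of -0.08. This split went with brightness. The 5 above 0 (Ctsb, Ctsc, Ctsd, Ctsl and Ctsz) read at least 50% of the array's maximum on every array, and the 5 below did not. Other probe sets of Ctsb ran from -0.85 to 0.25, and those of Ctsc lay at -2.24 and -2.20, so the split is not a count of directions. Ctsz, a carboxypeptidase, was above medium on all 5 LPS arrays, with 15775 in medium and 19512 to 20621 on the others, at 0.35 ± 0.31. Ctsb, a cysteine cathepsin, was also above medium on all 5, with 19578 in medium and 20788 to 25453 on the others, at 0.27 ± 0.32. Ctsh, an aminopeptidase, was below medium on all 5, with 9732 in medium and 6068 to 8579.8 on the others. Lgmn, the asparaginyl endopeptidase that processes other cathepsins, gave the widest spread of the role. It read 13315 in medium and 13449 on the LPS array, almost the same, but 7349.8 and 3961 on the Trib1-line wild-type arrays and 8813 and 4665 in the knockout. On the Trib1 line its values went with the array number in both genotypes. Ctsk, the collagen-degrading cathepsin of osteoclasts, showed a like dependence, with 1313 and 1263 on the arrays numbered 1 and 1999 and 2499.8 on those numbered 2. Ctsa, Ctsc, Ctsd, Ctsl and Tpp1 lay between -0.28 and 0.16.

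How bright a probe set was bears on these differences. Counting every probe set of the 36 genes that was tested, 18 read at least 50% of the array's maximum in medium, and their log2 differences ran from -0.92 to 0.35 with 0 at 2-fold or more. The other 58 ran from -2.64 to 0.90. In that fit 12 of them were at least 2-fold lower and 0 higher, which is 20.7% in either direction. Ctsc, Galc, Lipa and Atp6v0d2 each gave more than 1 of the 12. Over all probe sets tested, 2.07% of the brightest class and 10.6% of the rest differed by 2-fold or more. Of the 28189 in that rest, 1644 were lower and 1330 higher. For Ctsc, the chosen probe set read 15651 in medium and 16599, 16422 and 16619.6 on the wild-type LPS arrays. Another Ctsc probe set read 2414 in medium and 1139, 511 and 229 on those arrays, a limma log2 difference of -2.24 with an adjusted p of 0.489, and the remaining one read 595, 329.6, 104 and 63.8. For Ctsb, a dimmer probe set read 8960.4 in medium and 7442, 4918 and 3337 after LPS, against the slightly higher values of the brightest one. Of the 40 other probe sets tested, 11 had the opposite sign to the chosen one after LPS, and they belong to Mitf, Ctsb (3), Ctsc (2), Neu1, Npc2, Cln3, Laptm5 and Atp6v1h. Between genotypes 11 had the opposite sign as well, of Ctsb (2), Ctsc (2), Gaa, Galc, Mcoln1, Cln3, Scarb2, Laptm5 and Atp6v1h. A cathepsin near the top of the intensity range is therefore described here only by its signal, and the part of saturation in these differences was not tested.

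**Figure D3:**
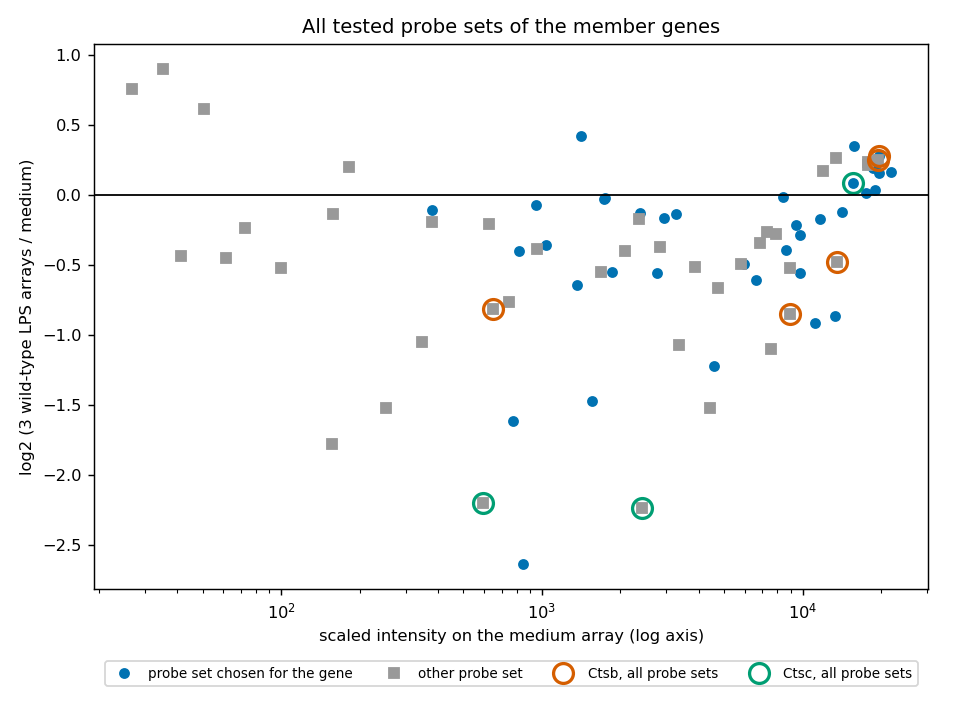
Limma log2 difference of the 3 wild-type LPS arrays from medium against scaled intensity in medium (log axis) for every tested probe set of the 36 genes, with chosen probe sets as circles, other probe sets as squares and the Ctsb and Ctsc probe sets ringed. The ringed Ctsc points run from 0.08 for the brightest probe set to -2.24, and the brightest points lie near 0.

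The promoters of these genes are shown because TFEB-family factors bind the letters TCACGTG in many lysosomal promoters. RefSeq promoter windows (GRCm38.p6, from 250 bases before to 50 after each start) were held for 30 of the 36 genes, and Asah1, Atp6v0d2, Atp6v1h, Ctsb, Ctsh and Npc1 had none. TCACGTG, searched on both strands, occurred in 9 of the 30 genes, against 4.29% of 27025 genes, and in 9 of their 39 promoters, against 3.77% of 32851 promoters. The shorter CACGTG, which lies inside it, occurred in 10 of 30 (the same 9 and Ctsl), against 8.09% of genes. TCATGTG, another letter string such factors can bind, occurred in 5 of 30 (Ctsa, Ppt1, Scarb2, Tpp1 and Gla), against 4.31%. Stretches that hold TCACGTG are printed 5′ to 3′ on the gene's strand, with each match on either strand in capitals, so that TCACGTGA is a match on both strands. One stretch upstream of the start is shown for each gene. Further matches, not shown, begin at -149 in Cln3, at -245 in Ctsd and at 4 and 5 in Ctsa, counted in bases from the start.
Ctsa, chr2:164833749-164833772, plus strand: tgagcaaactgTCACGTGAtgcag
Cln3, chr7:126583340-126583369, minus strand: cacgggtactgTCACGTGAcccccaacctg
Ctsd, chr7:142387907-142387938, minus strand: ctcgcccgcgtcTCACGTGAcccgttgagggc
Mcoln1, chr8:3500435-3500492, plus strand: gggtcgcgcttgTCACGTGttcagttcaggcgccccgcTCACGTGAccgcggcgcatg
Lamp1, chr8:13159087-13159160, plus strand: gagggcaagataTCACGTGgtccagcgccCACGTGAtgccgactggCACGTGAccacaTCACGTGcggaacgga
Naglu, chr11:101070008-101070038, plus strand: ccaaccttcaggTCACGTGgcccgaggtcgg
Gaa, chr11:119267810-119267840, plus strand: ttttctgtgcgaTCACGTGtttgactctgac
Lgmn, chr12:102439125-102439153, minus strand: tggaatgtctgTCACGTGgtccattttat
Gla, chrX:134601181-134601245, minus strand: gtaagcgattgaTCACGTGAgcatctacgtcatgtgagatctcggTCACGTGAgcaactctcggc

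The log2 differences after LPS of the 9 genes with this motif ran from -0.86 for Lgmn to 0.16 for Ctsd in the limma fit. Naglu lay at -0.55, and Lamp1, whose promoter has 4 places in capitals, at 0.04. Tfeb, Galc and Lipa, at -2.64, -1.62 and -0.92, had promoters without these 7 letters in the window, which says nothing of sites elsewhere. Npc1 and Atp6v0d2, at -1.47 and -1.22, had no promoter window and could not be searched. A match is a description of letters and not a measured site.

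The Trib1-line arrays and the LPS pair differed for many of these genes, wild-type arrays included. All 4 Trib1-line arrays lay below both arrays of the LPS pair for 12 of the 36 genes, against 12% of all genes, and above both for 1 gene (Ppt1), against 13.1%. The 12 were Ctsa, Lgmn, Tpp1, Hexa, Galc, Gusb, Man2b1, Lipa, Lamp1, Npc1, Laptm5 and Atp6v0d2. For Man2b1, an acid mannosidase, the LPS pair read 8659 in medium and 8899.6 after LPS, while the Trib1-line arrays read 5694 and 5635 in the wild type and 4094 and 4171 in the knockout. On this probe set the lower values thus went with the Trib1-line arrays and not with LPS inside the LPS pair. A dim second Man2b1 probe set read 156 in medium and 42.1 on the LPS array. Its log2 difference over the 3 wild-type LPS arrays was -1.78, so the probe sets of Man2b1 differ inside the LPS pair. Below medium on all 5 LPS arrays were 15 of the 36 genes (41.7%), where 24% of all genes were.

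Between genotypes no gene of the 36 passed the test, and the genes without overlap lay in both directions. Atp6v0d2 and 3 hydrolases had the smallest limma p-values, each lower on the Trib1 knockout arrays by less than 2-fold. The comparison is of 2 knockout with 2 wild-type arrays, all after LPS. Both knockout arrays lay below both wild-type arrays for 8 genes (Mitf, Hexa, Naglu, Man2b1, Asah1, Lipa, Laptm5 and Atp6v0d2), against 15.7% of all genes, and above both for 5 (Ctsl, Galc, Neu1, Scarb2 and Atp6v1h), against 16.9%. At 2-fold or more, 0 genes lay below, against 0.331% of all genes, and 0 above, against 0.489%. The limma test called 0 of the 36 at an adjusted p under 0.05, and among all genes 0% higher and 0% lower. At an unadjusted p under 0.05, limma called 4 of the 36 lower (Man2b1, Asah1, Lipa and Atp6v0d2), against 2.76% of all genes, and 0 higher, against 2.77%. With 2 arrays a genotype, the smallest p of an exact permutation test is 0.333. The median log2 difference of the 36 genes was -0.06, with 24 below 0 and 12 above, and the median of all genes was 0.01. That median of the 36 was -0.13 with the median over each gene's probe sets and -0.13 without knockout array 1, and it turned to 0.0049 without knockout array 2 and to 0.011 with values as deposited. Without Trib1-line wild-type array 1 it was -0.0096, and without array 2 of that genotype -0.10. On the log2 scale 22 of the 36 lay within 0.25 of 0, against 54% of all genes, and 33 within 0.5, against 81.3%, with standard errors of 0.15 to 0.56 for the 36.

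**Figure D4:**
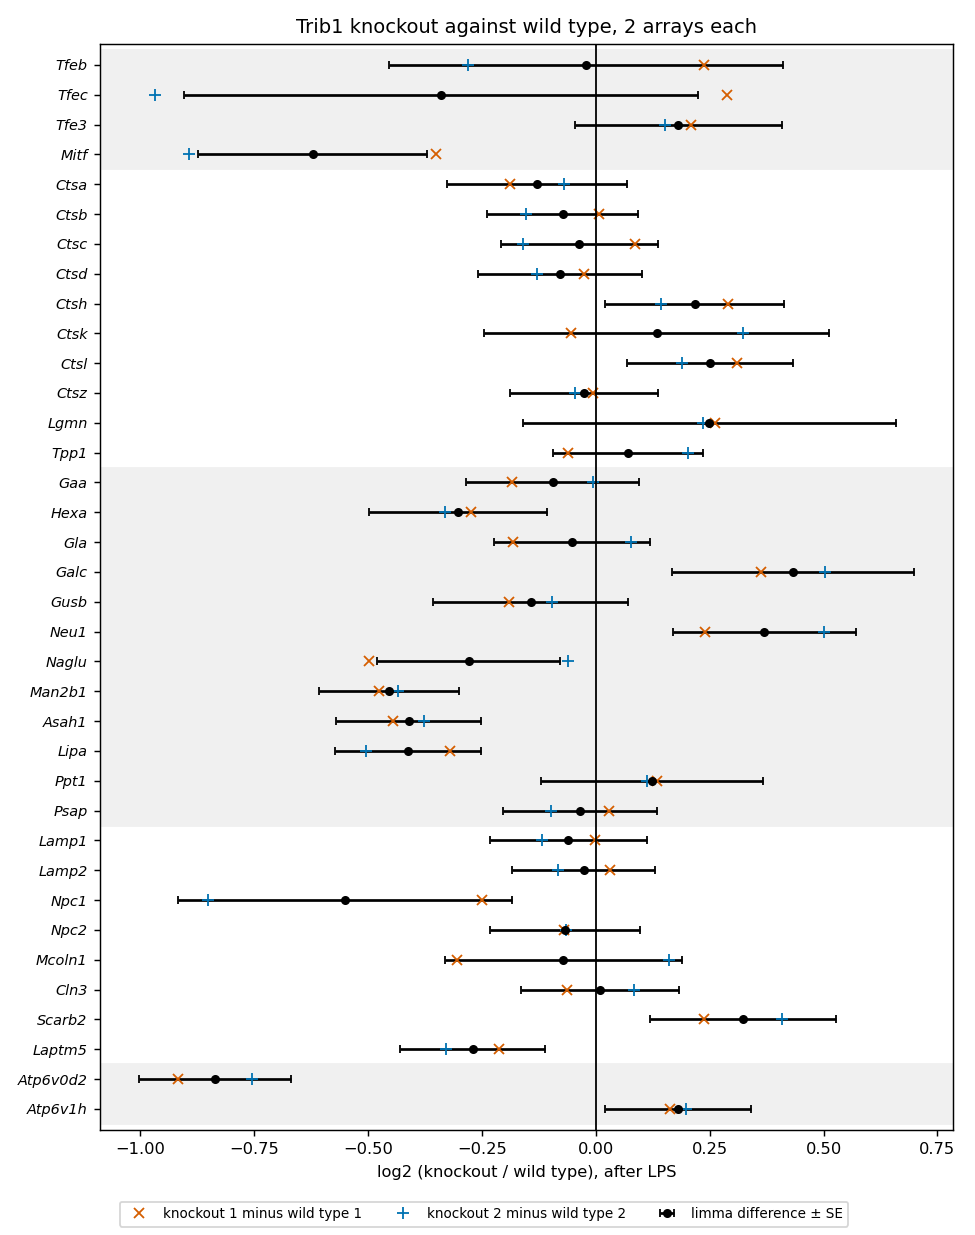
Limma log2 difference of knockout from wild type after LPS for the 36 genes (black points, bars ± SE, 2 arrays each), with the differences between arrays of the same number as crosses and plus signs. Atp6v0d2 lies furthest to the left at -0.84, both markers of Man2b1, Asah1 and Lipa lie near their fitted points, and the 2 markers of Tfec and Tfeb lie on opposite sides of 0.

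Atp6v0d2 read 1981 and 1840.4 in the wild type against 1048 and 1091 in the knockout. The nearest arrays of the 2 genotypes are 1.69-fold apart, and arrays of one genotype lie much closer together. The limma log2 difference was -0.84 ± 0.17 (SE, n = 2 and 2), 1.79-fold lower in the knockout, with an adjusted p of 0.818. Its second probe set gave -0.89, with the same adjusted p of 0.818. Both probe sets read the same RNA samples and are no replicates of the genotype. The other pump subunit of the 36, Atp6v1h, read 1684 and 1659.7 in the wild type and 1886 and 1902 in the knockout, at 0.18 ± 0.16.

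The 3 hydrolases were Man2b1, Asah1 and Lipa. Man2b1 read 5694 and 5635 in the wild type and 4094 and 4171 in the knockout, at -0.46 ± 0.15 (SE) with a limma adjusted p of 0.95. Lipa read 5039.6 and 5646 in the wild type and 4038 and 3977 in the knockout, at -0.41 ± 0.16 with an adjusted p of 0.979, and its other probe sets gave -0.42 and -0.40. Asah1 read 4407 and 4619.8 in the wild type and 3237 and 3556 in the knockout, at -0.41 ± 0.16 with an adjusted p of 0.978. In each of these the genotypes do not overlap, and the knockout values are 1.33-fold to 1.37-fold lower. Hexa and Naglu also did not overlap between genotypes, at -0.30 and -0.28. The genotypes overlapped for Gaa, Gla, Gusb, Ppt1 and Psap, whose differences ran from -0.14 for Gusb to 0.12 for Ppt1.

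Among the membrane and cholesterol genes, Npc1 read 594 and 462 in the wild type and 499 and 256 in the knockout. The genotypes overlap, because knockout array 1 lies above wild-type array 2, and the limma difference of -0.55 ± 0.37 (SE) had an adjusted p of 0.999. Laptm5, a membrane protein of blood cells, read 7265 and 7177 in the wild type and 6267 and 5715 in the knockout, at -0.27 ± 0.16. A dim probe set of Laptm5 had the opposite sign, with 141 and 77.9 against 217 and 214. Lamp1, Lamp2, Npc2, Mcoln1 and Cln3 overlapped between genotypes and lay between -0.07 and 0.01.

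**Figure D5:**
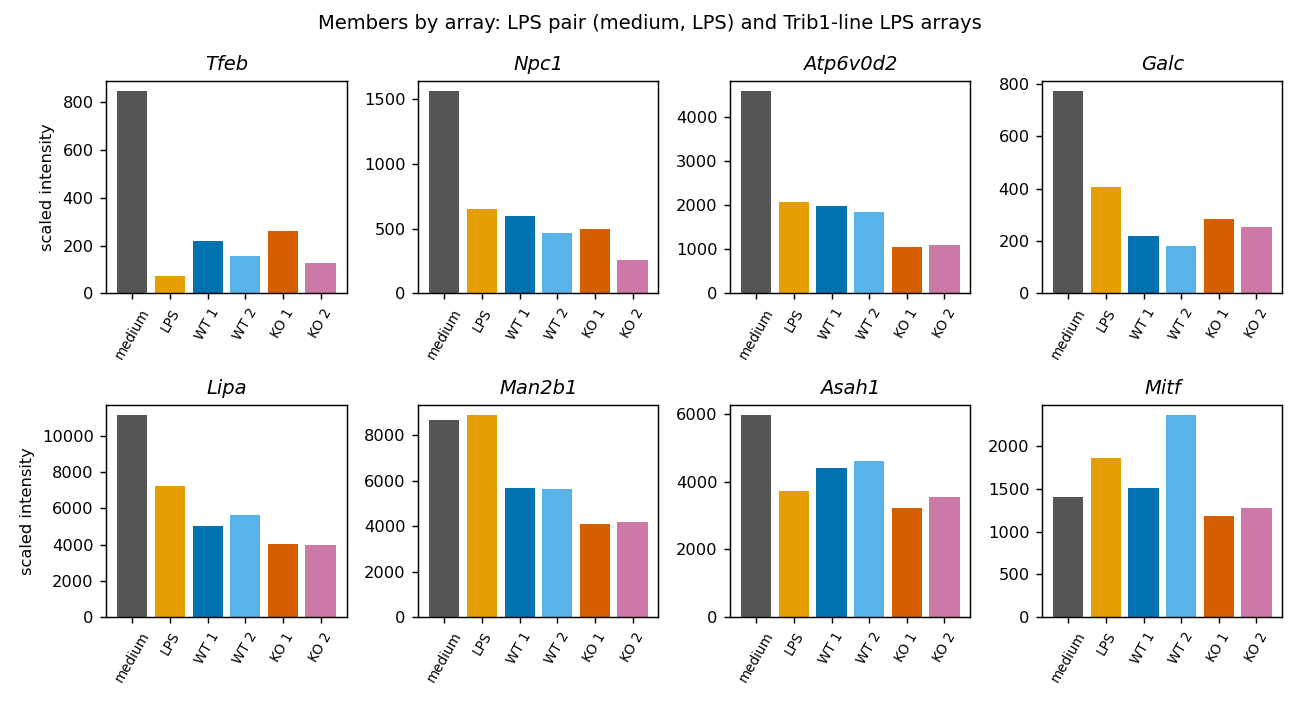
Scaled intensity of 8 genes on the 6 arrays, 1 bar per array from 0 and a separate scale for each gene. The medium bar is the tallest for Tfeb, Npc1, Atp6v0d2, Galc, Lipa and Asah1, and both knockout bars (KO) are below both wild-type Trib1-line bars (WT) for Atp6v0d2, Lipa, Man2b1, Asah1 and Mitf.

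In the other direction the differences were of a like size. Galc read 219 and 179 in the wild type and 282 and 254 in the knockout, at 0.43 ± 0.27 (SE) with a limma adjusted p of 0.999. A second Galc probe set went the opposite way, with 204 and 131 in the wild type and 91.8 and 72.4 in the knockout, so the array gives no direction for Galc between genotypes. Neu1, the lysosomal sialidase, read 991 and 777 in the wild type and 1169.5 and 1099 in the knockout, at 0.37 ± 0.20. Scarb2 read 3339 and 2547 against 3937 and 3378, at 0.32 ± 0.20, and its second probe set gave -0.34. Ctsl, the cathepsin that trims the invariant chain in some antigen-presenting cells, was the peptidase without overlap, with 14412 and 17261 against 17876 and 19684, at 0.25 ± 0.18. The genotypes overlapped for the other 9 peptidase genes, whose differences ran from -0.13 for Ctsa to 0.25 for Lgmn.

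Tfeb did not separate the genotypes, with 221 and 156 in the wild type and 260.4 and 128 in the knockout. Its log2 difference of -0.02 ± 0.43 (SE) turns positive without wild-type array 1 or without knockout array 2, at 0.23 and 0.49. Tfec read 161 and 513 against 197 and 262, and its difference of -0.34 ± 0.56 becomes 0.49 without wild-type array 2. Tfe3 read 929 and 744 against 1074 and 827, at 0.18 ± 0.23. Mitf was the factor without overlap, with 1515 and 2366 in the wild type and 1187 and 1275 in the knockout, at -0.62 ± 0.25 and a limma adjusted p of 0.998. Its second probe set read 265 and 451 against 183 and 198, at -0.86. Mitf is also a factor of mast cells, and the summed level of 9 mast cell and eosinophil markers was 707 and 1182 in the wild type and 361 and 394 in the knockout. Within that list the mast cell carboxypeptidase gene Cpa3 read 297 and 367 against 47.8 and 118. Tpsb2, Tpsab1 and Fcer1a were also lower in the knockout without overlap, while Kit, Mcpt4, Prg2 and Epx overlapped between genotypes. The eosinophil receptor gene Ccr3 was under the floor on every array. The part of these cells in the Mitf difference was not tested.

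Some markers of other cells differed between genotypes as well. The summed level of 8 neutrophil markers was 1607 and 1610.0 in the wild type and 16449 and 7847 in the knockout, carried by S100a8 at 1251 and 1238 against 8853 and 7314 and by S100a9 at 11.5 and 8.1 against 6906 and 206. The granule genes Mpo and Elane read 68.6 to 95.5 and 64.4 to 87.2 on these 4 arrays, with no such difference. Within the same list Camp was under the floor on both wild-type arrays and read 219.9 and 66.9 in the knockout. Ltf went the opposite way without overlap, with 87.002 and 87.226 in the wild type against 40.2 and 12.7 in the knockout. Ngp and Cxcr2 overlapped between genotypes. The summed level of 6 dendritic cell markers was 3397 and 4744 against 1672 and 2641, carried by Itgax at 3031 and 4055 against 1244 and 2233. Of the rest of that list, Flt3, Zbtb46, Xcr1 and Ccr7 overlapped between genotypes. Cd209a did not overlap, at 87.9 and 91.8 against 75.8 and 53.4. The summed level of 11 mesothelial and stromal markers was 1262 and 1559 against 1832 and 4366, carried by collagen genes and Dcn, while the mesothelial gene Gpm6a was under the floor on every array. The 6 B cell markers summed to 570.0 and 741 against 309.9 and 421. The 7 T and NK cell markers summed to 399 and 585 against 350.4 and 420.0, with overlap. The part of these cells in the differences of the 36 genes was not tested, and in such bulk RNA fewer cells of a type and less RNA per cell cannot be told apart.

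Other genes of the same pathways, from lists that hold none of the 36, also had medians below 0 after LPS, where the median of all genes was -0.03. Over all genes, 31.5% were below medium on all 3 wild-type LPS arrays, and 2.24% were at least 2-fold below on all of them. Of 27 further hydrolase genes, 16 were below medium on all 3 wild-type LPS arrays and 3 were at least 2-fold below on all of them (Manba, Naaa and Pla2g15), and the median log2 difference was -0.42. Naaa, which splits N-acylethanolamines, read 4268 in medium and 1733, 1594 and 1425 on those arrays, at a limma log2 difference of -1.43 and an adjusted p of 0.14. Of 26 further membrane genes tested, 4 were at least 2-fold below on all 3 (Slc17a5, Slc29a3, Slc36a1 and Tpcn1), and the median was -0.47. Mcoln2, a relative of the channel gene Mcoln1, stood on the opposite side, with 566 in medium and 1529, 1371 and 1559.7 on the wild-type LPS arrays, at 1.39 and an adjusted p of 0.149. Of 15 further pump subunits tested, 7 were below medium on all 3, and Atp6v0a1 was at least 2-fold below on all 3, with a median of -0.14. Of 24 genes that control mTORC1 or TFEB, 14 were below medium on all 3 and the median was -0.37, with Ppp3ca, the catalytic subunit of the phosphatase that activates TFEB, at -1.41 and Gsk3b, a kinase that phosphorylates TFEB, at -1.58. Of 18 autophagy genes, 11 were below on all 3 and the median was -0.22, with Uvrag, a partner of Beclin 1, at -1.47. Limma called 0 genes of these lists at an adjusted p under 0.05 in either comparison, while 5.32% of all genes were lower after LPS at an unadjusted p under 0.05. At that threshold 7 of 27 hydrolase, 5 of 26 membrane, 3 of 15 pump, 3 of 24 control and 2 of 18 autophagy genes were lower after LPS.

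Between genotypes the same lists lay close to 0, with medians of -0.12 for hydrolases, 0.02 for membrane genes, 0.02 for pump subunits, -0.02 for mTORC1 and TFEB control and 0.09 for autophagy. Atp6v0a1, a membrane-sector subunit of the pump as Atp6v0d2 is, read 3003 in medium, 1158 on the LPS array, 803 and 853 on the Trib1-line wild-type arrays and 435 and 506 in the knockout. Those values fall in the same order of groups as Atp6v0d2, and the genotype difference was -0.82 ± 0.20 (SE) with a limma adjusted p of 0.885. Hgsnat, of heparan sulfate breakdown, read 526 and 934 in the wild type and 315 and 374 in the knockout, at -1.03 and an adjusted p of 0.95. Ctse, an aspartic protease of endosomes, read 175 and 707 in the wild type and 2178 and 1408 in the knockout, at 2.32 ± 0.65 and an adjusted p of 0.912. Its wild-type arrays lie far apart from each other, and its values on the LPS pair were 145 and 163. Sqstm1, the autophagy receptor p62, read 6029 and 4952 against 7678 and 6702, at 0.39.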

How the data were processed

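Total RNA of 6 mouse macrophage samples was hybridised to Affymetrix arrays. The authors deposited linear intensities made with MAS5, per the submitters' processing notes, and its version and target scaling are not given in the sources used here. Of 45101 probe sets, 64 controls were left out. Probe sets were named from the platform annotation: 34945 had 1 gene, 932 several and 9160 none, and 34741 of the first matched the reference by gene identifier. Each array was rescaled to a common mean (2% trimmed on each side), values under the floor were set to it, and log2 was taken. Probe sets that exceeded the floor in 2 or more of the 4 arrays compared were fitted with limma 3.58.1 in R 4.3.3 (lmFit, eBayes with trend), with Benjamini-Hochberg adjustment over all of them. Other steps used Python 3.11.15.

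The genes and lists were chosen with earlier results of these data known, so their counts are descriptions beside those of all genes. The LPS pair has 1 array a group and was given no test, and in the fit of 3 LPS arrays the lone medium array is assumed to vary like them. All 36 genes are named, with full statistics for the smallest p-values of each fit and the 4 factors, and other probe sets where their sign differs. Of each further list, up to 2 genes with the smallest p per fit are named, and genes named beside a count or among markers were picked after their values were seen. Limma's p-values are two-sided. Promoters are from RefSeq. The tests were checked on simulated data with known changes. Those changes were larger than most differences reported here, and the simulated spread was set smaller than that of the arrays. The check therefore does not measure how well differences of the size reported here are found. The number of arrays limits the precision, and depth does not apply.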

Additional observations from a re-analysis of the deposited data

How the results depend on the processing

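All alternatives were chosen with the designs, and none was added later. With a wild-type Trib1-line array in place of the LPS array, genes at least 4-fold lower went from 1 to 0 (array 1) or 2 (array 2), and those at least 2-fold lower from 4 to 7 (array 1). In the limma test of 3 wild-type LPS arrays, leaving out 1 array gave 0 to 6 genes lower at an adjusted p under 0.05 and 4 to 11 at an unadjusted p under 0.05. The latter count, 5 in the report, was 1 with values as deposited, 2 without the filter and 8 with the median over a gene's probe sets. Values as deposited shift the median of all genes because the arrays were deposited at unequal scales. Genes above medium on all 3 went from 6 to 0 as deposited, 2 after quantile normalization and 3 with median probe sets. For genotype, limma called 4 genes lower at an unadjusted p under 0.05, but 1 as deposited, 1 without the trend, 8 with the replicate block and 1 to 3 with 1 array left out. It called 0 higher, but 1 without the filter and 2 with the block. Genes with both knockout arrays below both wild-type arrays, 8 in the report, numbered 10 to 20 with 1 array left out. Those above, 5 in the report, numbered 6 to 13, 1 with median probe sets, and 3 with the LPS array as an added wild type. Leaving out an array loosens this rule, so neither count could fall that way. The matching shares of all genes are not given here.

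The labels do not say that numbers 1 and 2 pair the Trib1-line arrays. The deviations of same-numbered arrays correlated at 0.35 over 29078 probe sets, and the fit with the replicate block called 85 probe sets higher and 31 lower at an adjusted p under 0.05, with 0 of the 36 genes (smallest adjusted p 0.061, Atp6v0d2). The sign turned for Tfec after LPS (0.033 after quantile normalization, -0.40 to 0.45 with 1 array left out) and Mitf after LPS (-1.14 as deposited). Between genotypes it turned for Tfeb (0.046 as deposited, 0.43 with the LPS array added, -0.53 to 0.49 with 1 array left out). With 1 array left out, it also turned for Tfec (-1.17 to 0.49) and Tfe3 (-0.0075 to 0.37). The causes were not tested. Tfeb, Npc1, Atp6v0d2, Galc and Lipa stayed lower after LPS, and Atp6v0d2, Man2b1, Asah1 and Lipa lower in the knockout, under every alternative run. With 1 medium array, the spread of untreated cells was not measured.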
